A study of Mus musculus with 4 samples.

Results

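The comparison described here sets the liver of male LKO mice kept on chow against the liver of male F/F mice on the same diet. LKO mice (Alb-Cre; Lpiat1F/F) carry floxed alleles of Lpiat1, the gene listed as Mboat7 in current annotation, and a Cre recombinase under the promoter of albumin, a gene of hepatocytes. F/F mice (Lpiat1F/F) carry the same floxed alleles without Cre. Both groups were on a C57BL/6 background, ate standard CE2 chow over the 18 weeks from 6 weeks of age and were 24 weeks old. A pair of groups of the same genotypes fed a high-fat diet (HFD) is used only for comparison. Each of the 4 groups has 1 array, so 2 of the 4 arrays are compared, and whether an array holds RNA of 1 mouse or of several is not stated in the sources used here. The members of the comparison are the genes with a probe well above background on at least 1 of the 2 chow arrays, 14998 of the 23462 genes with a named probe. Other liver cells keep Lpiat1 in LKO mice, and in whole liver fewer cells of a type cannot be told apart from less RNA per cell.

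LPIAT1, also called MBOAT7, is a membrane-bound enzyme that attaches arachidonic acid to lysophosphatidylinositol and so gives phosphatidylinositol (PI) its characteristic arachidonic acid tail. PI is made from CDP-diacylglycerol, can be phosphorylated to signalling lipids, and is broken down by phospholipase C to diacylglycerol, which can also enter triglyceride synthesis. In the liver, common variants near the human gene are linked to fatty liver disease.

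Levels are processed spot intensities, called signals below. Differences are LKO minus F/F in log2 signal after each array was set to its 75th percentile, so that 1 stands for 2-fold. With 1 array for each group there is no replicate check of any difference on chow, no spread between mice and no p-value. The only error available is technical. Within an array, replicate spots of a probe differed with a SD (log2) of 0.0711 for signals over 1000 and 0.129 between 100 and 1000. The SD was 0.185 between 30 and 100, and 0.364 below 30. These values for dim spots rest on only 14 and 6 pairs of a probe and an array, against 533 for signals over 1000. Between 2 probes of the same gene the spread was wider, as their LKO minus F/F differences on chow differed with a SD of 0.276 (4850 genes). A gene well above background on 1 chow array only has a bound, written as "at least", taken against the lowest signal well above background on the other array or the dim probe's own signal, whichever was higher. The direction of a bound follows from the array on which the gene was detected, also where bounds enter the counts of a list. On the chow arrays, 54.2% of F/F spots and 53.0% of LKO spots were well above background, and no spot was saturated.

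The signal of the targeted gene, Mboat7, reached 1102 (F/F) and 861 (LKO) on chow, while on HFD F/F had 1181 and LKO 1100. The LKO signal was the lower one on both diets, with a difference of -0.30 on chow and -0.27 on HFD. In a fit over both diets (limma, described below) this did not pass (adjusted p = 0.628). Most of the signal remained in LKO liver. Where its single probe lies with respect to the floxed exons is not known here, so its level is no firm check of the labels. Hepatocyte markers had like levels on both arrays. All 14 hepatocyte markers were measured, with differences between -0.20 for Cebpa, a liver-enriched transcription factor, and 0.08 for Fgb, the fibrinogen beta chain. Alb, which encodes albumin and whose promoter drives Cre, had signals of 231569 in F/F and 228565 in LKO.

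LKO liver differed from F/F liver on chow by little for most genes. Of 14981 genes with a value, 7602 (50.7%) were higher and 7379 (49.3%) lower in LKO, and the median difference was 0.0033. At least 2-fold higher were 167 genes (1.11%), of which 83 were measured in both genotypes and 84 are bounds. At least 2-fold lower were 154 genes (1.03%), 80 measured and 74 bounds. Of the 163 measured genes past 2-fold, 122 had a signal under 100 on the dimmer array, against 4555 of all 14185 measured genes. Another probe with a value existed for 23 of the 163, and it had the same direction in 19 and was also past 2-fold in 9. With normexp background correction, which shrinks differences between dim probes, the counts were 20 higher and 19 lower. The plot of difference against signal shows the wide spread of dim genes and the few bright genes that lie outside it.

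**Figure D1:**
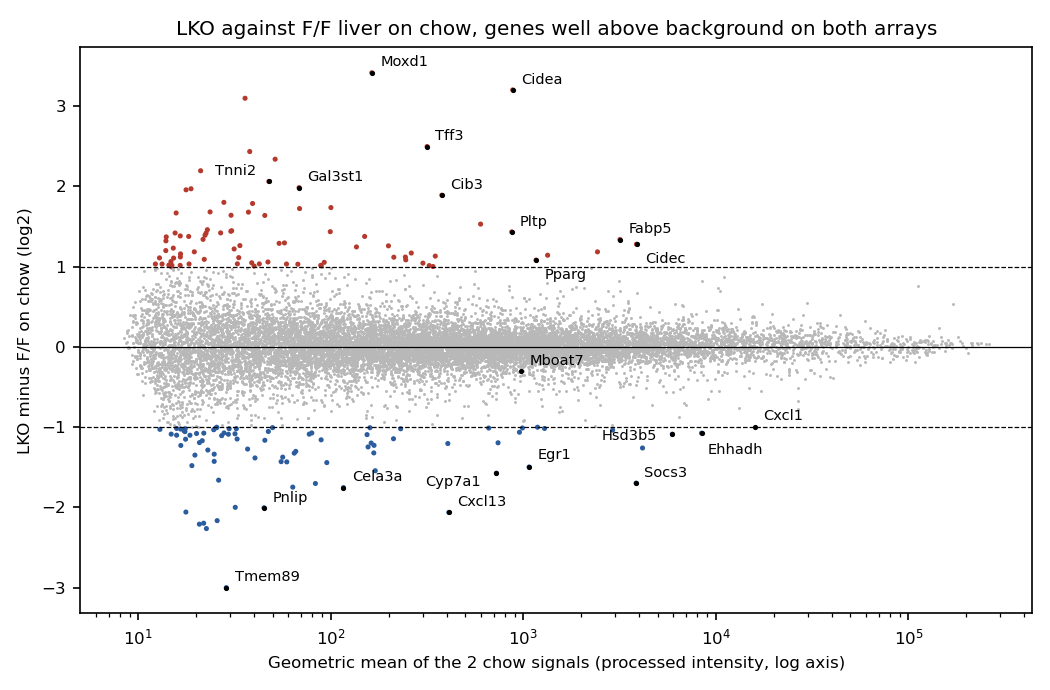
Difference between LKO and F/F liver on chow (log2, vertical axis) against the geometric mean of the 2 chow signals (log axis), 1 point for each of the 14185 genes well above background on both arrays. Red and blue points lie past 2-fold (dashed lines) and named genes are black. Cidea and Tff3 stand far above 0 and Cxcl13 far below it, while Mboat7 lies at -0.30.

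Lipid droplet genes were among the bright genes that differed most. Cidea encodes a lipid droplet protein that enlarges droplets and is scarce in lean liver. On chow it had a signal of 296 (F/F) and 2619 (LKO), and on HFD of 6616 (F/F) and 2456 (LKO). The lowest of the 4 values was thus the F/F chow array, and the genotype difference was 3.20 on chow and -1.60 on HFD. Cidec, a relative with the same function, had signals of 2533 in F/F and 5913 in LKO on chow (difference 1.28), with 14846 and 11758 on HFD. Pparg, which encodes the nuclear receptor PPAR gamma that activates fat storage genes, followed the same pattern, with 815 and 1659 on chow (1.08) and 2619 and 2207 on HFD (-0.41). Mogat1, a monoacylglycerol acyltransferase of triglyceride synthesis, had 169 and 353 on chow (1.12) and 1298 and 986 on HFD (-0.56). These 4 genes thus lay above F/F in LKO on chow and below F/F in LKO on HFD.

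The rest of the droplet list differed less. Its 21 genes with a value split into 14 higher and 7 lower, with 2 at least 2-fold higher and a median of 0.09. Plin4, a perilipin, was higher by 0.74, whereas Plin2, the main perilipin of fatty hepatocytes, was singled out after its values were seen and had signals of 33506 and 30092 (-0.10). Of the 14 genes of the adipocyte list, 8 were higher and 6 lower (median 0.07). The 4 at least 2-fold higher were Cidea, Cidec, Pparg and Slc2a4, the insulin-responsive glucose transporter, singled out after its values were seen, with 48.1 and 94.5 (1.03). Adipoq (adiponectin), the one gene at least 2-fold lower, was at 69.6 in F/F and 32.2 in LKO (-1.05), and Plin1 was well above background in F/F alone, with LKO at least 1.41-fold lower. The summed signal of the 14 adipocyte genes was 242098 in F/F and 239100 in LKO. Of triglyceride synthesis, 9 of 16 genes were higher and 7 lower (median 0.03), with Acsl1, a fatty acyl-CoA synthetase, lowest at -0.38.

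Fatty acid synthesis had the highest median of the 51 lists. Of 18 genes, 15 were higher and 3 lower in LKO, the median was 0.35 (0.28 to 0.35 over the processing alternatives), and none reached 2-fold. Acacb, which makes the malonyl-CoA that restrains mitochondrial import of fatty acids, had signals of 2407 in F/F and 4091 in LKO (0.82). Pnpla3, a lipase-like droplet protein whose human variant is a strong risk factor for fatty liver, was well above background in LKO alone, at least 1.72-fold higher. Fads2, the desaturase that begins the synthesis of long polyunsaturated fatty acids, had 2549 and 3965 (0.69). Srebf1, which encodes SREBP-1, a regulator of these genes, was at -0.17. On HFD the list's median was 0.17. In limma over both diets, 7 of 17 tested members were higher and 1 lower at an unadjusted p under 0.05. The shares of all genes were 4.41% and 3.43%, and none of the members passed after adjustment. These counts reuse the chow arrays, in a list chosen with earlier results known, and are a description only.

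Cholesterol synthesis was higher by less, with 17 of 22 genes higher, 5 lower and a median of 0.15. Fdps, which makes farnesyl diphosphate, had the highest difference (0.74), and Dhcr7, which acts late in the pathway, was at 0.51. Of the lipoprotein genes, Pltp, which encodes the phospholipid transfer protein of plasma, had 540 in F/F and 1402 in LKO on chow (1.43), and 813 and 1706 on HFD (0.90). Apoa4, an apolipoprotein that tracks liver fat load, had 6537 and 11070.1 on chow (0.82) but 69676 and 46834 on HFD (-0.74).

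**Figure D2:**
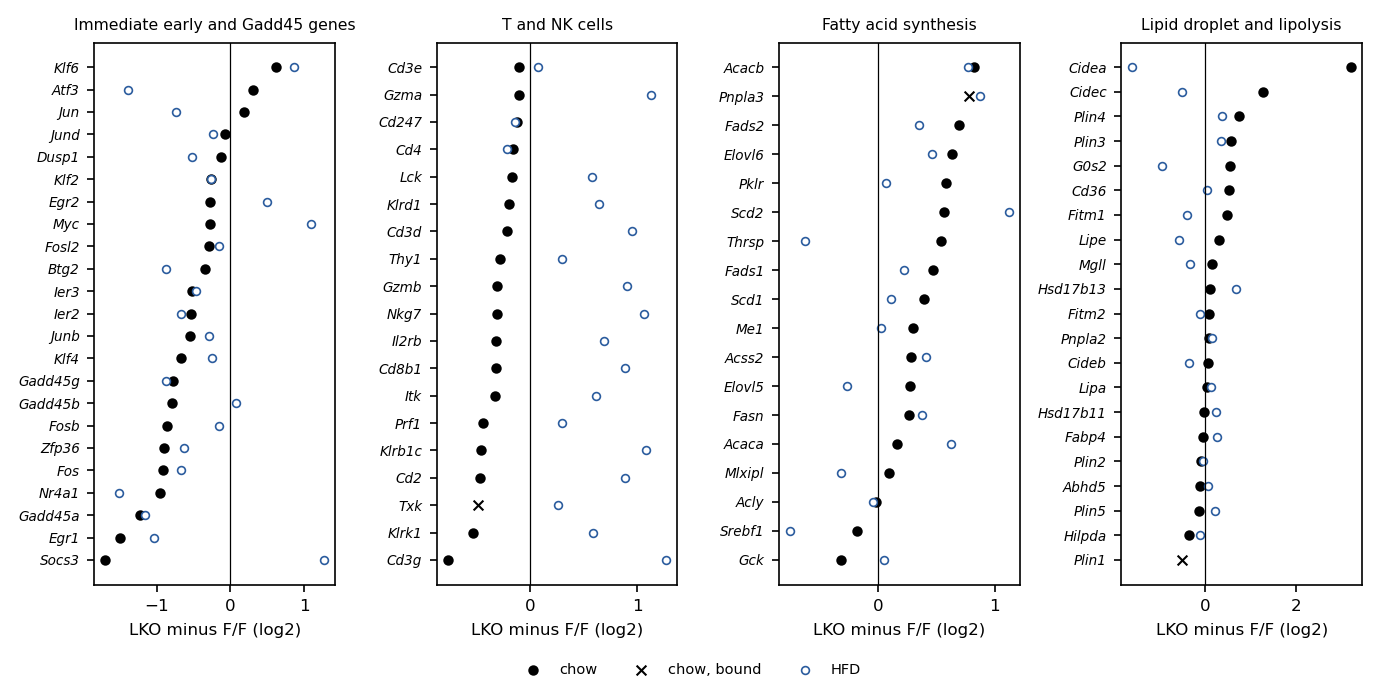
LKO minus F/F (log2) for every gene with a chow value in 4 lists, on chow (filled circles, or crosses where the value is a bound) and on HFD (open circles, measured or bound). Fatty acid synthesis lies mostly right of 0 on chow, immediate early genes mostly left of 0 on both diets, and T and NK cell genes left of 0 on chow and mostly right of 0 on HFD.

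Genes that burn fat were split. Of 29 genes of fatty acid oxidation and PPAR alpha targets, 11 were higher and 18 lower, with a median of -0.06. Cidea, described above as a droplet gene, also stands on this list and was its highest member (3.20) and the only 1 at least 2-fold higher. Ehhadh, the peroxisomal bifunctional enzyme, was lowest, with signals of 12467 in F/F and 5691 in LKO (-1.08). Pdk4, a kinase that spares glucose by switching off pyruvate dehydrogenase, had 1709 and 821 (-1.002), and Acot1, an acyl-CoA thioesterase, had 17593 and 9955 (-0.77). On HFD these 3 genes lay on the other side, at 0.40, 0.87 and 0.33. Cpt1a, the gate to mitochondrial oxidation, was at 0.30 on chow, and Ppara itself at 0.19, singled out after its values were seen.

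Of the genes of bile acid synthesis and transport, Cyp7a1 differed most. Cyp7a1, the rate-limiting enzyme of bile acid synthesis from cholesterol, had signals of 1274 (F/F) and 411 (LKO) on chow (-1.57), and 1472 and 834 on HFD (-0.99). It was the only one of 22 genes with a value past 2-fold. Of the list, 16 were lower and 6 higher, with a median of -0.07. Next lowest were Abcg8, part of the sterol exporter of the bile canaliculus (-0.38), and Hsd3b7, the next enzyme of the pathway (-0.31). Cyp8b1, which sets the share of cholic acid, was higher by 0.23. On HFD, 19 of 23 genes were lower and 4 higher, with a median of -0.38. Of all genes with a value on HFD, 54.1% were lower and 45.9% higher, and 12 of 14 hepatocyte markers were lower there too. In limma over both diets, 7 of 22 tested members were lower at an unadjusted p under 0.05 and 0 higher. The shares of all genes were 3.43% lower and 4.41% higher, and no member passed after adjustment. As the chow arrays are part of this fit and the list was chosen with earlier results known, the counts are a description only.

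The PI pathway, in which LPIAT1 itself acts, stayed near the background. With 18 genes measured, 10 were higher and 8 lower, none reached 2-fold, and the median was 0.06, which changed sign under the processing alternatives (-0.01 to 0.09). Acsl4, which activates arachidonic acid for LPIAT1 and other acyltransferases, was the highest member, at 2408 in F/F and 3157 in LKO on chow (0.45), and at 2649 and 5216 on HFD (0.81). Mboat1, a related acyltransferase, was the lowest, at 20.8 and 13.6 on chow (-0.56) but 30.6 and 73.5 on HFD (1.10). Of 15 phospholipase C genes, 10 were higher and 5 lower (median 0.05). Past 2-fold were Plcd3, with 118 and 33.9 (-1.75), although its second probe gave -0.83, and Plch2 and Plcl1, which were well above background in LKO alone and at least 3.04- and 2.43-fold higher. Plce1 had 58.0 and 89.3 (0.68).

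Immediate early and Gadd45 genes, which encode short-lived transcription factors and feedback regulators that respond within minutes to hormones and injury, lay below F/F in LKO liver in 20 of 23 cases, 3 of them by 2-fold or more. Their median was -0.53 on chow (-0.54 to -0.28 over the alternatives) and -0.46 on HFD. Egr1, a zinc finger transcription factor, had 1834 in F/F and 625 in LKO on chow (-1.50), and 1427 and 781 on HFD. Gadd45a, a stress-induced growth arrest gene, had 262 and 107 on chow (-1.23), and 218 and 110 on HFD. Both LKO arrays thus lay below both F/F arrays for these genes. Klf6 was the highest member, at 0.62. In the limma fit over both diets, 11 of 23 were lower and 1 higher at an unadjusted p under 0.05, against 3.43% and 4.41% of all genes. None of the 23 passed after adjustment. The fit holds the same chow arrays and the list was chosen with earlier results known, so these counts are a description only.

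Socs3, a feedback inhibitor of cytokine signalling through STAT factors, had the lowest difference of the list, at 7072 in F/F and 2097 in LKO on chow (-1.70), but lay higher in LKO on HFD, at 515 and 1398 (1.27). Of the growth hormone list, Cish and Socs2, feedback inhibitors of signalling through STAT5, had the same order of the 4 arrays, while Bcl6, Stat5b and Igfals did not. Cish had 2122 and 1177 on chow (-0.79), and 258 and 722 on HFD (1.32). Socs2, singled out after its values were seen, had 645 and 373 on chow (-0.74), and 115 and 344 on HFD (1.41). For all 3 genes F/F chow was the highest and F/F HFD the lowest array. This list, called male-biased, joins male-biased genes with genes of growth hormone signalling such as Stat5b, Cish and Socs2. Of its 24 genes, 16 were lower and 8 higher (median -0.08). Hsd3b5, a male-specific steroid dehydrogenase, was lowest, with 8835 and 3997 on chow (-1.09), and 281 and 44.5 on HFD (-2.83), and Elovl3, a male-biased fatty acid elongase, was at -0.87.

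The STAT motif TTCNNNGAA was searched on both strands in promoters of RefSeq genes (GRCm38.p6, 250 bases before to 50 after the start). It was found in 9.55% of 27025 promoters, in 2 of 20 immediate early promoters and in 3 of 17 of the male-biased list. The 2 promoters below, of Socs3 (chr11:117969317-117969616, minus strand) and of Cish (chr9:107296409-107296708, plus strand), were picked because both hold the motif, once in Socs3 and 2 times in Cish, and their genes had the same order of levels, so the pair says nothing of a link between motif and order. The promoters of Zfp36, Bcl6 and Igfals, the other holders in these lists, are not shown. Capitals mark the matches.
Socs3: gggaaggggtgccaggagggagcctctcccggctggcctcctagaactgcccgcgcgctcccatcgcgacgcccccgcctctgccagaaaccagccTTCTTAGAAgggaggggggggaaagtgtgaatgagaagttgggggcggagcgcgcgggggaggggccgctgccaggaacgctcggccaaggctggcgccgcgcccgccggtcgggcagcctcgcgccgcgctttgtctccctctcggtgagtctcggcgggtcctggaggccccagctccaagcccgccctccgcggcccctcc
Cish: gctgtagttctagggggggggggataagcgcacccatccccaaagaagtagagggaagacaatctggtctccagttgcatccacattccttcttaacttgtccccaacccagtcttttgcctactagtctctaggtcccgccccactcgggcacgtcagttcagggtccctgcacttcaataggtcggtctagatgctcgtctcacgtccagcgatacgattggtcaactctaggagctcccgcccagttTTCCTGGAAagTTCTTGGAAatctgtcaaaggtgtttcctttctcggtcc

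Immune lists differed in direction on chow, and 20 genes of antigen presentation split into 10 higher and 10 lower, with a median of 0.0029 that changed sign under the alternatives (-0.04 to 0.04). Of 52 interferon-stimulated genes with a value, 37 were lower and 15 higher, 1 was lower by 2-fold or more, and the median was -0.21 (-0.23 to -0.15 over the alternatives), while the HFD median was 0.20. Ifit1, an RNA-binding antiviral protein, had the lowest difference, at 115 in F/F and 52.0 in LKO on chow (-1.09), and 152 and 165 on HFD. Cxcl10, a T cell chemokine, had 247 and 143 (-0.74) on chow, and Rsad2, the antiviral enzyme viperin, had 140 and 82.6 (-0.71). For these 3 genes LKO chow was the lowest of the 4 arrays.

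The core of the interferon response element, searched as 2 copies of GAAA with any 2 bases between them, was present on either strand in 3.99% of all promoters and in 25 of 41 promoters (61.0%) of the interferon-stimulated list. The promoters of Ifit1 (chr19:34640639-34640938, plus strand), Rsad2 (chr12:26456403-26456702, minus strand) and Cxcl10 (chr5:92348840-92349139, minus strand) are shown as the lowest members of the list, with matches in capitals. On the strand shown, Ifit1 and Rsad2 hold the reverse complement.
Ifit1: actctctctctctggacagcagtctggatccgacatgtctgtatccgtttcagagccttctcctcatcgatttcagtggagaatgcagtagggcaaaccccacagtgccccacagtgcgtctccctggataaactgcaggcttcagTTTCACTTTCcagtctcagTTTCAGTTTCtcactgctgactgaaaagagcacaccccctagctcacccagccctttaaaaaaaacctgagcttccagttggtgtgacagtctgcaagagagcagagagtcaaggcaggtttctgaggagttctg
Rsad2: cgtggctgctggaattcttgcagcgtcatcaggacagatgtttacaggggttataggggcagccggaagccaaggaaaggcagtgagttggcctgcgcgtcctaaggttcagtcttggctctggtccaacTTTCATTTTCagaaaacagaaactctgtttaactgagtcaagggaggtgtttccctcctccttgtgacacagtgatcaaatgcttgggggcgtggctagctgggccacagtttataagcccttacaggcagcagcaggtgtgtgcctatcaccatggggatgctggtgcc
Cxcl10: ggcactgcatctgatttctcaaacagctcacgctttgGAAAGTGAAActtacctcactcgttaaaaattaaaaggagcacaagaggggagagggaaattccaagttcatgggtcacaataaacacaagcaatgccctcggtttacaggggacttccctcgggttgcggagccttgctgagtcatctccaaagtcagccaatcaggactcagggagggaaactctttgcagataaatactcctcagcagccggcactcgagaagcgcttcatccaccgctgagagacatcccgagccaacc

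Markers of T and NK cells were lower in LKO on chow in all 19 cases with a value, none by 2-fold, with a median of -0.31 (-0.32 to -0.09 over the alternatives). Of these, 18 were measured on both chow arrays and 1 is a bound. Cd3g, a T cell receptor chain, had 26.8 and 15.1 (-0.77), and Klrk1, the NK cell receptor NKG2D, had 46.6 and 30.9 (-0.53). The brighter Cd3e had 385 and 343 (-0.11). The listed markers Cd8a and Ncr1 were not well above background on either chow array, and the list summed to a signal of 7483 (F/F) and 6404 (LKO). On HFD, 18 of 20 were higher, with a median of 0.67, where 45.9% of all genes with a value were higher and 54.1% lower in LKO.

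Chemokines and receptors had 23 lower and 8 higher of 31 genes (median -0.22). Of the 27 measured on both chow arrays, 19 were lower and 8 higher (median -0.18), and the 4 bounds were all lower. Cxcl13, the B cell chemokine, was at 855 in F/F and 197 in LKO on chow (-2.06), and at 175 and 22.2 on HFD (-3.14). Cxcl1, a neutrophil chemokine, had 22969 and 11082 on chow (-0.995), but 1870 and 4826 on HFD (1.20). Of 14 neutrophil markers, 9 were lower and 5 higher, and 4 were lower by 2-fold or more, 2 of them bounds (median -0.25). S100a8, a subunit of the neutrophil protein calprotectin, had 957 and 456 (-1.01), and Retnlg 136 and 58.4 (-1.16), whereas Lcn2, which hepatocytes also make, had 8361 and 14658 (0.87). The summed signal of the neutrophil list was 25092 in F/F and 29199 in LKO, most of it Lcn2 and Csf3r. Kupffer cell and macrophage markers did not share this, with 13 higher and 8 lower of 21 and a median of 0.02.

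Acute phase proteins, which hepatocytes secrete, were slightly higher, in 24 of 27 cases (median 0.09). Besides Lcn2, Saa1, a serum amyloid A, had 87831 and 142914 on chow (0.76), but 78366 and 38529 on HFD (-1.19), and Apcs, the serum amyloid P component, had 988 and 1502 (0.66).

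Cell cycle, collagen and stellate cell genes were higher more often than lower, and matrix proteases and inhibitors were not. Of 31 cell cycle genes, 23 were higher and 8 lower, with a median of 0.30 (0.14 to 0.31 over the alternatives). Of the 28 measured on both chow arrays, 20 were higher and 8 lower (median 0.26), and the 3 bounds were all higher. Ccnd1, cyclin D1 of the G1 phase, had 411 in F/F and 760 in LKO on chow (0.94), and 1326 and 2360 on HFD (0.66). Cdk1 was well above background in LKO alone, at least 1.93-fold higher, and Cdkn1a, the inhibitor p21, was lowest at -0.43. Of 17 collagens, 11 were higher and 6 lower (median 0.17), and of 18 stellate cell and myofibroblast markers, 16 were higher and 2 lower (median 0.17). Col1a1, the main chain of scar collagen, had 49.1 and 72.9 on chow (0.63), and 395 and 603 on HFD (0.44). Col3a1 had 201 and 275 (0.51). The lowest collagens on chow were Col12a1 (-0.48), Col8a1 (-0.32) and Col27a1 (-0.18). On HFD they were at -0.02, 0.18 and -1.46. Of 20 matrix proteases and inhibitors, 9 were higher and 11 lower, with 2 at least 2-fold lower and a median of -0.02 that changed sign under the alternatives (-0.03 to 0.06). Mmp7, a matrix-degrading protease, had 105 and 41.1 on chow (-1.30), and 77.9 and 319 on HFD (1.87), and Adamts9, a protease of matrix proteoglycans, had 118 and 53.8 on chow (-1.07). The summed signal of the stellate list was 30180 in F/F and 31856 in LKO. That of the collagen list was lower in LKO, at 30953 in F/F and 29819 in LKO. Most of the collagen sum was Col18a1, with 28778 and 27365. The plot of all lists sets these medians side by side.

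**Figure D3:**
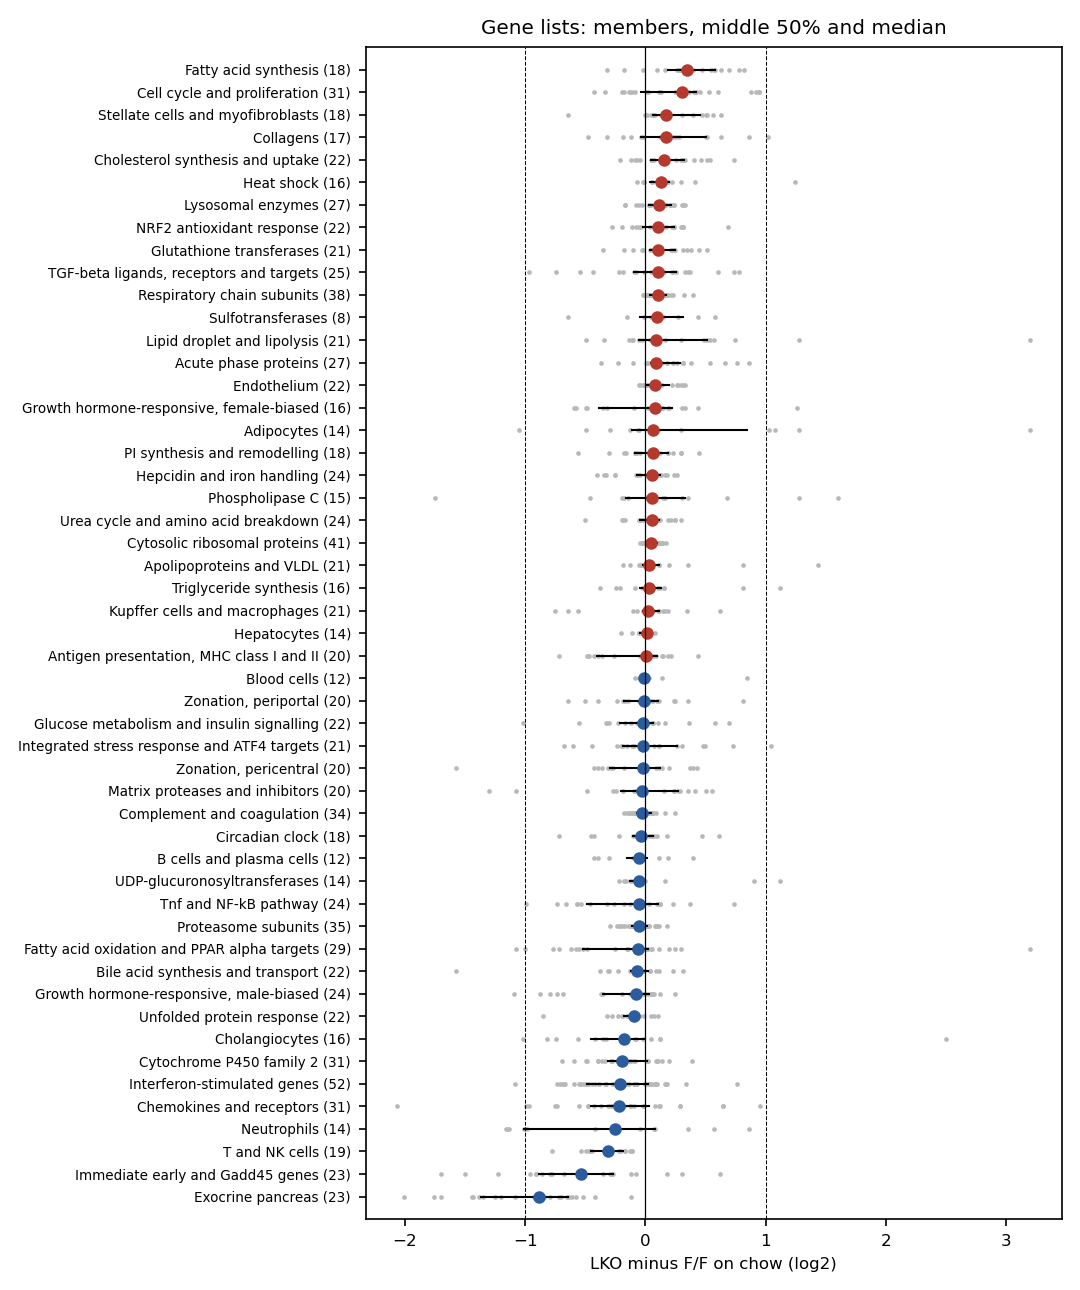
LKO minus F/F on chow (log2) for the 51 gene lists, ordered by median. Grey points are genes, black bars the middle 50% and coloured points the medians, with the number of genes with a value in brackets and dashed lines at 2-fold. Fatty acid synthesis has the highest median (0.35) and exocrine pancreas the lowest (-0.88), and most lists lie near 0.

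Of the 51 lists, the median furthest from 0 belonged to exocrine pancreas genes, whose products are digestive enzymes. All 23 with a value were lower in LKO on chow, 10 by 2-fold or more, with a median of -0.88, and on HFD their median was 1.86. Summed over the list, the signals came to 14691 (F/F) and 9026 (LKO) on chow, and to 9794 and 24397 on HFD. Pnlip (pancreatic lipase) had 91.9 and 22.02 (-2.01), Cela3a and Cela3b, pancreatic elastases, had 218 and 62.1 (-1.75) and 153 and 45.2 (-1.70), and 4 listed genes, Pnliprp2 and Prss1 among them, were not well above background on either chow array. Skeletal muscle genes, a list chosen after the values were seen, lay the other way. Of the 9 measured on both arrays, 8 were higher, 3 of them by 2-fold or more (Tnni2, Myl1 and Cox6a2), and their median was 0.80. Another 8 are bounds, 7 higher and 1 lower, whose direction follows from the array on which they were detected, and over all 17 the median was 0.95. The list was drawn up because Tnni2, Tnnc2, Myl1 and Cox6a2 stood among the genes that differed most, so its counts are a description only. Its summed signal was 603 and 1021. Tnni2, a fast muscle troponin, had 23.8 and 95.4 (2.06), and the muscle creatine kinase gene Ckm was not well above background on either chow array. What these values contribute to the other groups was not tested.

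The 12 genes furthest above F/F and the 12 furthest below held several of these genes. Among the 12 highest, Moxd1, a monooxygenase-like protein, had 50.9 in F/F and 523 in LKO on chow (3.42), but 2.02 and 4.32 on HFD, where it was not well above background. Tff3, a secreted trefoil peptide of mucosal surfaces, had 136 and 737 on chow (2.50), and 146 and 1250 on HFD (2.93). Cib3, a calcium-binding protein, had 200 and 712 on chow (1.89), and 254 and 5215 on HFD (4.19). Tff3 and Cib3 were thus higher in LKO on both diets. Tff3 also stands on the list of bile duct cell markers, of which 12 of 16 with a value were lower in LKO on chow (median -0.17). Of the 14 measured on both chow arrays, 10 were lower (median -0.11), and the 2 bounds were lower too. The list had summed signals of 13655 (F/F) and 13718 (LKO), and its part in the Tff3 value was not tested. Gal3st1, the sulfotransferase that makes sulfatide, had 35.1 and 133 (1.98), Tafa2 23.3 and 113 (2.34), and Ttc39a 10.04 and 44.2 (2.19, with a bound of 0.49 from another probe), and for these 3 genes both HFD signals were above the F/F chow signal. The others were Tnni2, Myl1 and Cox6a2, expressed in striated muscle, and Gm13275 and 4930431P03Rik, with differences from 1.96 to 3.098.

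Among the 12 lowest, Tmem89 had 82.6 in F/F and 9.92 in LKO (-3.001), but 11.5 and 9.95 on HFD, so that the F/F chow array stood alone. The same held for Aldh1a2, a retinoic acid-making enzyme (-2.21), Ripk2, a kinase of innate immunity (-2.17), and Pknox2 (-2.20). Gp2, a pancreatic zymogen granule protein, had 50.5 and 10.1 (-2.26), and on HFD 12.6 and 53.5. Acod1, which makes itaconate in activated macrophages, had 36.8 and 8.49 (-2.06), and Obp2a had 65.0 and 15.6. Cxcl13, Pnlip, Plcd3, Cela3a and Cela3b, given above, complete the set. Of the bounds, the largest were Vwde, Tnnc2, Vmn2r80 and Gm30984, at least 13.8-, 12.7-, 11.1- and 9.10-fold higher in LKO, and Gm34628, 1700122O11Rik, Mrgpra2a and Rcor2, at least 12.8-, 11.3-, 10.4- and 9.54-fold lower. The second probe of Rcor2 was not well above background on either chow array. Of the 158 bounds past 2-fold, 89 belong to genes below that level on both HFD arrays.

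**Figure D4:**
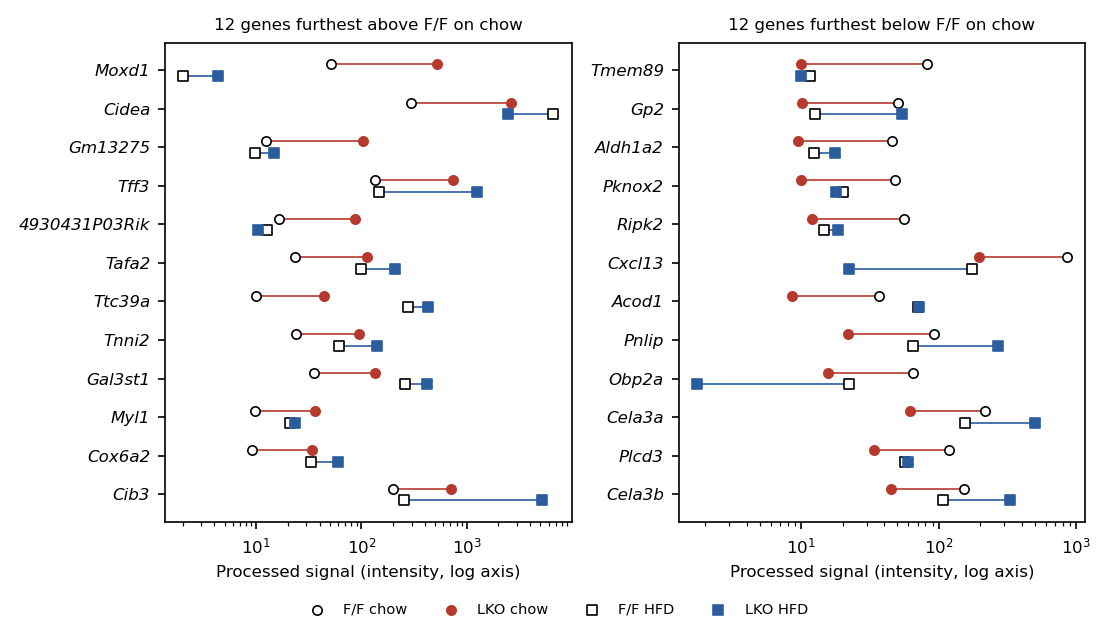
Processed signal (log axis) of the 12 genes furthest above and the 12 furthest below F/F on chow, on each of the 4 arrays, with a line joining F/F and LKO of one diet. Tff3 and Cib3 are higher and Cxcl13 is lower in LKO on both diets, whereas Cidea, Gp2, Pnlip, Cela3a and Cela3b turn over between the diets, and Moxd1 is near the foot of the axis on HFD.

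Whether a chow difference recurred was examined in the HFD pair, which shares no array with the chow pair and in which 2.36% of genes were at least 2-fold higher and 1.91% at least 2-fold lower in LKO. For the 13981 genes well above background on every array, the chow and HFD differences had a Pearson correlation of 0.103 and a Spearman correlation of 0.128, given as a description, since genes are not independent and the points share probes and one hybridisation series. Of 76 genes at least 2-fold higher on chow, 53 (69.7%) were higher on HFD too, against 43.8% of all these genes. Of 75 at least 2-fold lower on chow, 30 (40.0%) were lower on HFD, against 56.2%. All 10 exocrine pancreas genes among these 75 were higher on HFD. At least 2-fold the same way on both diets were 9 genes higher (5730416F02Rik, Asns, Cib3, Fabp5, Ggta1, Sprr1a, Tff3, Tnni2 and Uap1l1) and 5 lower (Cxcl13, Egr1, Gadd45a, Hsd3b5 and Neurog1). Asns, the asparagine synthetase induced by ATF4, had 214 and 423 on chow (1.04), and 111 and 452 on HFD (1.86), while the whole list of ATF4 targets had a median of -0.02.

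**Figure D5:**
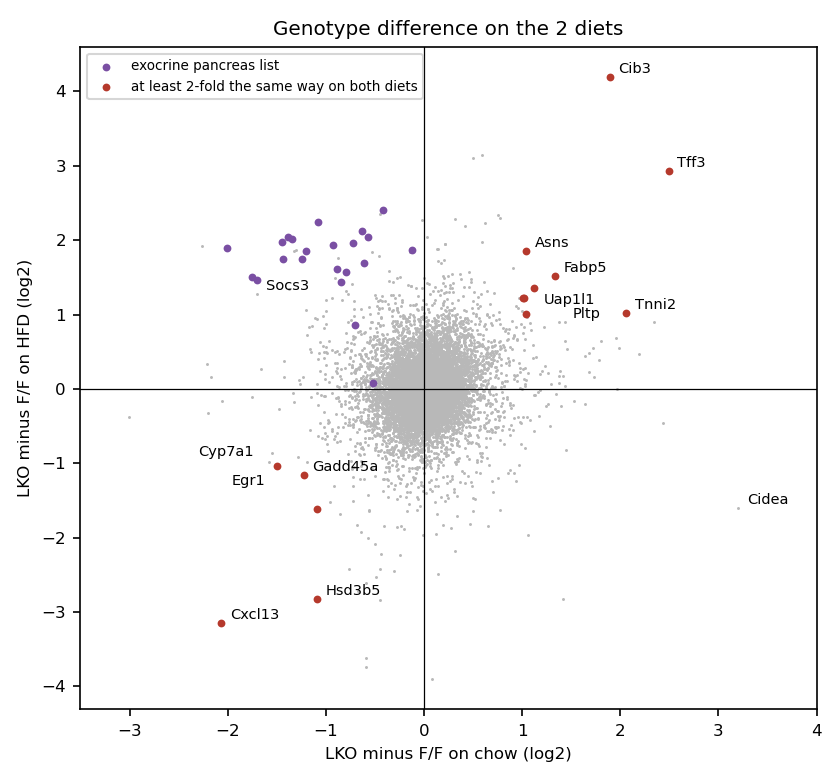
LKO minus F/F (log2) on chow (horizontal axis) and on HFD (vertical axis) for 13981 genes measured on every array. Genes at least 2-fold the same way on both diets are red, exocrine pancreas genes purple. Tff3, Cib3 and Cxcl13 lie far out in the shared quadrants, Cidea and the pancreas genes in the opposed ones.

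A test of genotype was possible only over both diets, where the diets act as blocks, 2 arrays stand for each genotype and 1 residual degree of freedom is moderated over genes. With limma and Benjamini-Hochberg adjustment, 3 of 13981 genes passed an adjusted p of 0.05 (0.0215%), and 1096 (7.84%) had an unadjusted p under 0.05. Tff3 rose in LKO by 2.71 (SE 0.154, adjusted p = 0.00256), and its adjusted p ranged from 2.88e-72 to 0.284 over the processing alternatives. Fabp5, a fatty acid-binding protein, had 2036 in F/F and 4949 in LKO on chow, and 2124 and 6820 on HFD. It rose by 1.43 (SE 0.126, adjusted p = 0.0342, range 3.64e-23 to 0.627). Cxcl13 fell by 2.60 (SE 0.248, adjusted p = 0.0389, range 3.16e-40 to 0.741). With quantile normalization, and without an intensity trend in the prior variance, limma called 0 genes, with 926 and 1050 at an unadjusted p under 0.05.

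Next in order came 7 genes that did not pass, with adjusted p from 0.0718 to 0.142 in limma. Higher were Uap1l1 (1.24), which had 147 and 307 on chow, Pltp (1.17), and Robo1 (0.99), a guidance receptor with 172 and 350 on chow. The second probe of Robo1 was not well above background on either chow array, and with probe means its difference over both diets was 0.29 (adjusted p = 0.858 in limma). Lower were Egr1 (-1.27), Cyp7a1 (-1.28), Gadd45a (-1.19) and Nr4a1 (-1.24), an immediate early nuclear receptor with 477 and 236 on chow and 2356 and 925 on HFD.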

How the data were processed

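Liver RNA of 4 groups, 1 array each, had been labelled with Cy3 and hybridised to SurePrint G3 mouse arrays. The authors deposited spot intensity from Agilent Feature Extraction 12.0.3.1 (per the labels), background-subtracted, with flags for outliers and signals well above background, and a table equal to that intensity times 1 factor per array (2.60 and 2.63 for F/F and LKO on chow, 2.41 and 2.10 on HFD). Groups were taken from the labels. The labels and the methods name different RNA kits.

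From log2 intensity, each array's 75th percentile over its 59305 spots other than controls was subtracted, and outlier spots were dropped. Transcript accessions of 33767 of 56605 probes matched RefSeq GRCm38.p6 and gave 23462 genes. The brightest probe stood for each of the 8057 genes with several probes. The arrays' grid names another build, so no probe coordinates are given. The lowest signals well above background were 7.80 (F/F chow) and 8.09 (LKO chow). The number of arrays limits the precision, and labels name no separate mice. The residual behind the p-values is the difference of the genotype effect between the diets, moderated over genes. It is not a spread between mice or between replicate arrays.

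The chow comparison was described without a test. The model diet plus genotype was fitted with limma 3.58.1 (lmFit, eBayes with trend) in R 4.3.3, and the steps were tested on simulated data. Lists were counted, with no set test. The comparison, the 51 lists and the rule for named genes were chosen with earlier results of these data known, and the skeletal muscle list after the values were seen. Named were Mboat7, the 12 highest and 12 lowest measured genes, the 4 largest bounds each way, the 3 highest and 3 lowest members of lists, and the 5 genes of lowest p each way in the fit. Some genes that this rule names are not reported here. Lists not named in the text are given in the plot of lists. Alternatives were normexp (offset 50, on median signals, as no mean column was used), quantile normalization, the percentile over probes well above background, the deposited table, measured genes only, no filter, probe means, folds of 1.5 and 4, and no trend. Python 3.11.15, pandas 2.3.3, numpy 2.4.6 and matplotlib 3.10.9 were used.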

Additional observations from a re-analysis of the deposited data

Results flagged for a closer look

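Some of the differences between LKO and F/F that lay on opposite sides of 0 on the 2 diets are given here. The selection is not complete. Socs3, Mmp7, G6pc and the medians of the adipocyte, B cell, and Tnf and NF-kB lists, for example, also changed side. With 1 array per group the difference was not tested. Among single genes, Cidea was at 3.20 on chow and -1.60 on HFD, Gp2 at -2.26 and 1.92, Pnlip at -2.01 and 1.90, Cela3a at -1.75 and 1.51, and Cela3b at -1.70 and 1.46.

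Among list medians, exocrine pancreas genes were at -0.88 on chow and 1.86 on HFD, and T and NK cell markers at -0.31 and 0.67. Chemokines and receptors were at -0.22 and 0.49, interferon-stimulated genes at -0.21 and 0.20, and cholangiocyte markers at -0.17 and 0.21. The other way, sulfotransferases were at 0.10 on chow and -0.58 on HFD, acute phase proteins at 0.089 and -0.12, and respiratory chain subunits at 0.11 and -0.19. For the respiratory chain, 35 of 38 genes were higher in LKO on chow and all 38 were lower on HFD. Before scaling, the list's summed signals on HFD were close, at 1.139e+06 (F/F) and 1.136e+06 (LKO). The scaling set these arrays to 75th percentiles of 263 and 296. Hepatocyte markers (12 of 14, median -0.19) and proteasome subunits (31 of 35, median -0.26) were also mostly lower on HFD. Cytosolic ribosomal proteins were higher there (40 of 41, median 0.17). What the scaling contributes was not tested.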

How the results depend on the processing

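The number of genes at least 2-fold higher or lower in LKO on chow depended on how dim probes were treated. The 167 higher and 154 lower genes became 20 and 19 with normexp background correction, 83 and 80 with measured genes only, and 672 and 807 with no filter and no floor. At 1.5-fold they were 527 and 519, and at 4-fold 42 and 33. Bounds are absent from the measured set by construction. No filter takes in the 8481 genes with no value on chow and drops the floor under the bounds, and normexp shrinks differences between dim probes. How much each of these steps contributes to the counts was not tested. Quantile normalization, the other percentile, the deposited table and probe means kept both counts within 1.5 times. Of the 39 named genes past 2-fold, 21 stayed past it with normexp and 35 with probe means, and none changed sign. With probe means the other 4 were Ttc39a at 0.61, Myl1 at 0.77, Robo1 at 0.09 and Rcor2 at -0.75. Of 52 list medians, 7 changed sign under some alternative, all of them within 0.1 of 0.

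The 3 genes called over both diets became 0 with quantile normalization, 0 without the intensity trend, 1 with probe means (Tff3) and 710 with no filter, and the cause was not tested. Leaving out an array leaves the fit no residual degree of freedom and the chow pair no comparison, so it was not run.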

Other observations

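Several lists not described above also lay mostly on one side on chow, with small differences. Of 22 genes of the unfolded protein response, 19 were lower in LKO (median -0.09), with Derl3, a factor of protein disposal from the endoplasmic reticulum, at 208 in F/F and 111 in LKO (-0.85). Of 31 cytochromes P450 of family 2, 22 were lower (median -0.19). Lysosomal enzymes were higher in 22 of 27 cases (median 0.11) and cytosolic ribosomal proteins in 33 of 41 (median 0.05).

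Clock genes had no common direction, with 8 of 18 higher (median -0.04). Per2 had 382 in F/F and 561 in LKO (0.61), and Nr1d1, a repressor of the clock, had 159 and 93.1 (-0.72). Pfkfb3, a switch of glycolysis, had 1869 and 888 (-1.02), and G6pc, which releases glucose from the liver, had 8475 and 13171 (0.69).

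Probes without a matched gene gave somewhat larger shares past 2-fold than genes did. Of 8848 with a value, 157 (1.77%) were higher and 121 (1.37%) lower in LKO on chow. For genes, each given by its brightest probe, the shares were 1.11% and 1.03%.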
